A study of Mus musculus with 12 samples.

Results

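The motile cilium axoneme genes were followed in cultured mouse oligodendrocytes (OLs) after siEgr2. They were taken by symbol from the counts table: the dynein heavy chains (Dnah), dynein intermediate chains (Dnai), cilia and flagella associated proteins (Cfap), radial spoke head genes (Rsph), dynein regulatory complex genes (Drc) and tektins (Tekt), together with Foxj1, Spag6l, Spag16, Spag17, Hydin, Ccdc39, Ccdc40 and Tmem212. This gave 83 of the 56860 named genes in the table. The rule reads gene names and no measured value, and it was written with earlier results of these data known. Primary OLs of C57BL/6J mice were isolated from the cortex at P6 to P7 by the surface antigen O4, expanded in PDGF-AA, and matured for 2 days in a medium with insulin, triiodothyronine and ciliary neurotrophic factor. The cells then received siEgr2 (6 libraries) or a scrambled control, siNC (6 libraries), and their RNA was sequenced after 48 h. The labels name no further genetic change in either group. The labels give the medial prefrontal cortex as tissue and the methods of the study give the cortex.

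A motile cilium is built on a ring of microtubule doublets around a central pair of single microtubules. Outer and inner dynein arms on the doublets drive the beat, radial spokes and the nexin-dynein regulatory complex (N-DRC) control it, and tektins and other inner proteins line the doublets. In the brain such cilia belong to ependymal cells, which line the ventricles, and to the choroid plexus, while astrocytes, neurons and cells of the OL lineage carry at most a primary cilium, which has no central pair and is not built to beat. Foxj1 encodes the forkhead factor that switches on the motile cilium program, together with factors of the RFX family.

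The groups differed in depth. Total counts per library ranged from 28682946 to 39383014 in siNC and from 8034251 to 16683677 in siEgr2, and all members together held between 14330 and 19155 counts in a library of siNC and between 3073 and 6518 in one of siEgr2. A ribosomal RNA entry, Rn18s-rs5, took 0.142% to 1.05% of the counts in siNC and 10.5% to 16.5% in siEgr2. Egr2, the targeted gene, had 5.35 ± 1.27 CPM (counts scaled to library size by TMM, SD, n = 6) in siNC and 3.77 ± 1.01 CPM in siEgr2, and the groups overlapped (log2 fold change −0.51, SE 0.21, adjusted p = 0.0981 by edgeR's quasi-likelihood test). The 16 OL markers summed to 11580 to 13054 CPM and the 13 astrocyte markers to 10286 to 11002 CPM in siNC, so the cultures held both kinds of transcript. The labels do not say whether the libraries of a group came from separate cultures, and p-values therefore measure the spread between these libraries, which may be technical.

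The comparison of siEgr2 with siNC asks which transcripts change when Egr2 is targeted. Part of the axoneme genes fell and none rose. Of the 83 members, 4 had no count in any library (Rsph14, Cfap97d1, Cfap107 and Tekt3), 53 passed the filter on low counts and were tested, and 30 in all were not tested. With a Benjamini-Hochberg adjusted p under 0.05 and a change of over 0.5 on the log2 scale as the rule for a call, 14 of the 53 tested members (26.4%) were called lower, beside 5.08% of all 16600 genes tested. None was called higher, beside 2.63% of all genes tested. The 14 fell by between 0.50 and 1.78 on the log2 scale, to between 70.7% and 29.1% of the siNC level. At an adjusted p under 0.05 with no threshold on the fold, 16 members (30.2%) were lower and none was higher, where 11.3% of all tested genes were lower. At an unadjusted p under 0.05, 26 of the 53 members were lower and 1, Cfap20, was higher, beside 16.9% of all tested genes lower and 15.1% higher. The log2 fold change was below 0 for 48 tested members and above 0 for 5, and its median was −0.52 over the members and 0.0046 over all tested genes; the filter favors values below 0 among the members with the fewest counts, as described next. In 7 members (13.2%; 7.00% of all tested genes) every siEgr2 library lay below every siNC library, and these were Foxj1, Cfap54, Dnai4, Cfap100, Dnah5, Cfap52 and Cfap45.

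The filter bears on these counts. Of the tested members, 38 stood above the filter's minimum of 0.441 CPM in all 12 libraries, and 11 of these (28.9%) were called lower, with 33 log2 fold changes below 0, 5 above 0 and a median of −0.45. This minimum applies to CPM by total counts and not to CPM on the TMM scale. The other 15 were below it in at least 1 siEgr2 library. The filter needs 6 libraries above the minimum. In Dnah11, Spag6l, Cfap91, Cfap45, Dnah6, Cfap43 and Cfap99 all 6 siNC libraries were above, so siNC alone could carry these genes through. Dnah2, Cfap47, Cfap161 and Cfap206 had 5 siNC libraries above. Dnah17, Dnah7a, Dnai3 and Cfap141 had 4, so these and the former passed with siEgr2 libraries as well. All 15 had a log2 fold change below 0 (median −0.84), and 3 of them, Cfap91, Cfap43 and Cfap45, were called. The untested members were summed as well. The 30 untested members reached at most 54 counts in a library, and their summed level was 5.28 to 9.98 CPM in siNC and 2.12 to 5.12 CPM in siEgr2, with no overlap. In 20 of them the siEgr2 mean was lower and in 6 it was higher. Cfap276, Cfap221, Rsph6a and Spag16 had counts in siNC and none in siEgr2, from siNC totals of only 6 to 24 counts. Tmem212, a membrane protein of ciliated cells, had 60 counts over the 6 siNC libraries and 19 over the 6 shallower siEgr2 libraries. Scaled for depth, its level was 0.296 ± 0.136 CPM in siNC and 0.213 ± 0.239 CPM in siEgr2, and the groups overlapped.

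The number of calls moved with the depth, the scaling and single siNC libraries. With every library thinned to the smallest total, 8 members were called lower of 42 tested, with 5.18% of all genes lower. Without siNC 1, siNC 4 or siNC 5 the count was 7, 8 or 9, with 4.95%, 5.17% or 4.86% of all genes lower. Scaling by library size alone shifted the median of all genes to −0.18 and gave 26 members and 10.5% of all genes lower, with 88.0% of all calls lower instead of 65.9%, while the median of the members relative to that of all genes stayed at −0.52. No member was called higher under any alternative. Cfap61 and Cfap97d2, which were not tested in the full set of libraries, were called lower with no filter beyond 1 count and when certain siEgr2 libraries were left out (Cfap61 without any 1 of them, Cfap97d2 without siEgr2 1, 4 or 6). Both were under the filter's minimum in all 6 siEgr2 libraries and over it in 5 siNC libraries, so in the latter fits their siNC level carried them into the test.

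**Figure D1:**
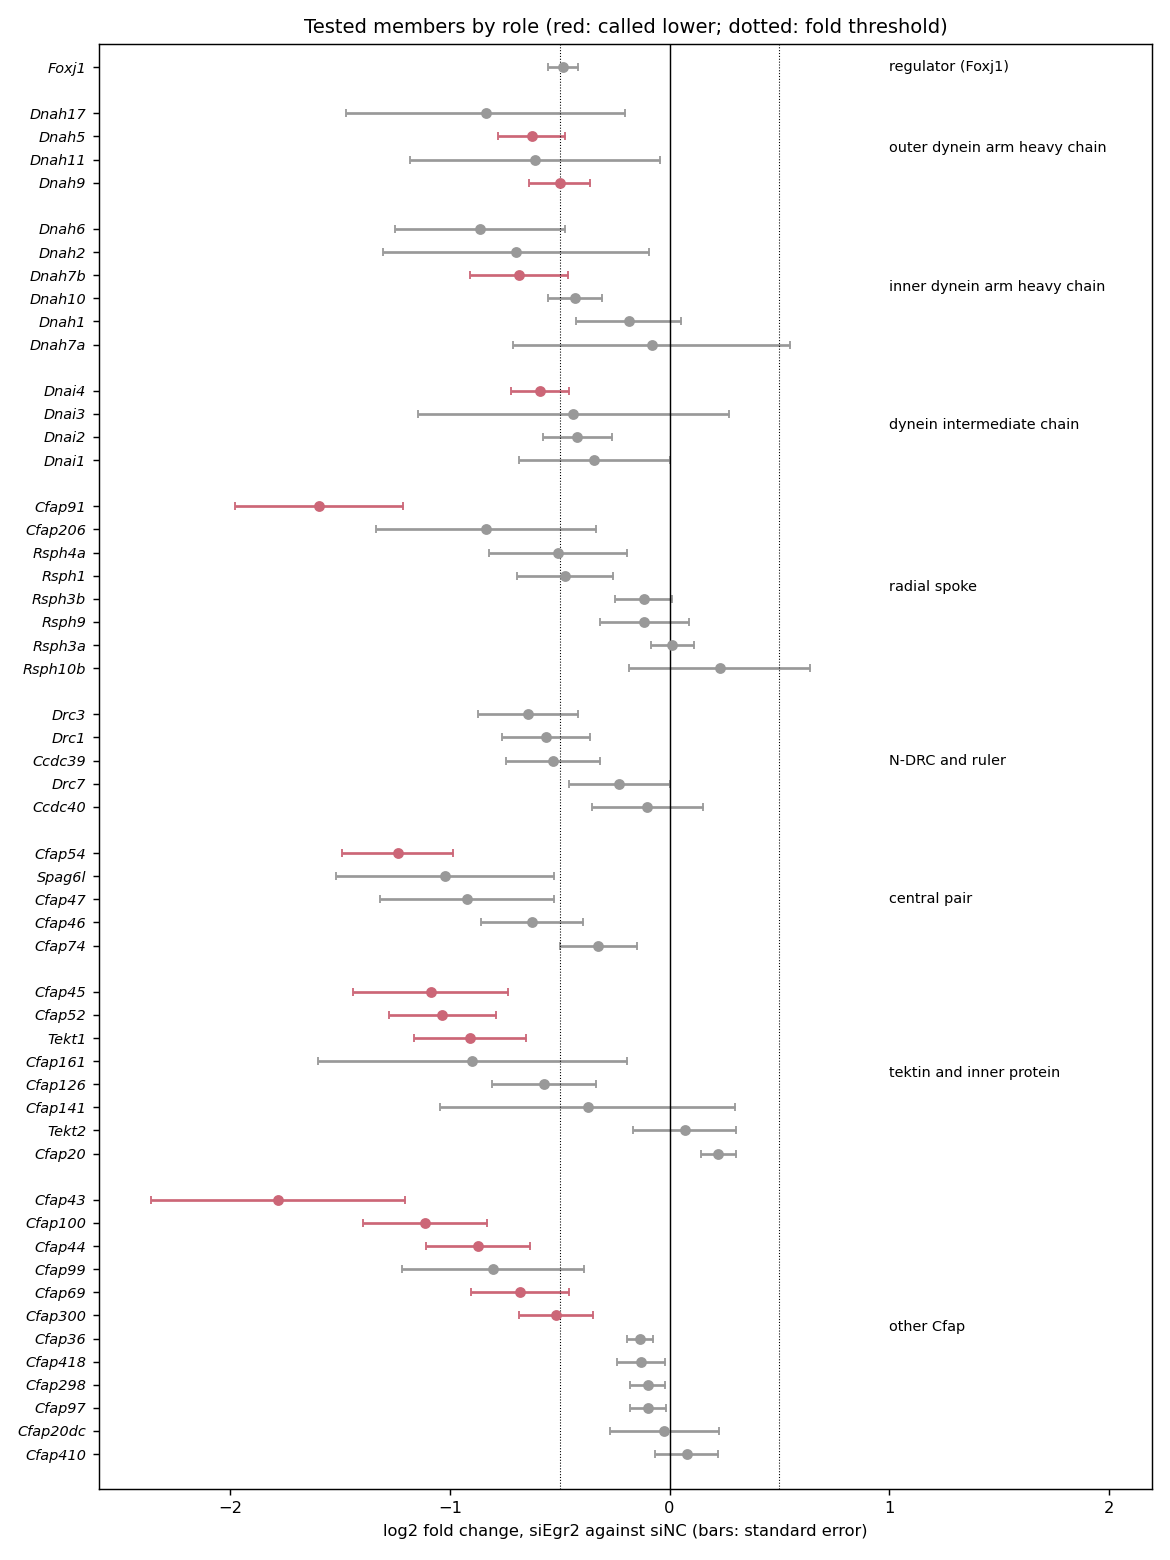
Log2 fold change, siEgr2 against siNC, of the 53 tested members ordered by role, with bars of 1 standard error; red marks the 14 called lower and dotted lines the fold threshold. Points lie left of 0 for 48 members, and the 5 to the right (Cfap20, Rsph10b, Cfap410, Tekt2 and Rsph3a) are not called.

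Foxj1, the regulator of the motile program, was lower in every siEgr2 library than in every siNC library. It lies on chr11:116330704-116335399 (GRCm38, minus strand, GENCODE M21), and none of its exon sequence is shared with another annotated gene. Its level in siNC was 58.4 CPM at the lowest, 68.9 at the median and 77.0 at the highest, and in siEgr2 44.2, 48.6 and 55.7 CPM. The raw counts behind these values were 1913 to 2886 in siNC and 380 to 777 in siEgr2. The 6 siEgr2 libraries formed a narrow band below the lowest siNC library, siNC 2. The mean fell to 71.5% of siNC (log2 fold change −0.48, SE 0.070, adjusted p = 0.000116 by edgeR's quasi-likelihood test), which passes the threshold on p and not the threshold on the fold. It passed both without siNC 2, siEgr2 1 or siEgr2 2, with library size only and with no filter on low counts, which are 5 of the 22 alternatives at the same thresholds. In the exact two-sided permutation test on log2(CPM + 0.5) the groups differed by −0.48, with p = 0.00216, the smallest value that 6 against 6 libraries allow.

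**Figure D2:**
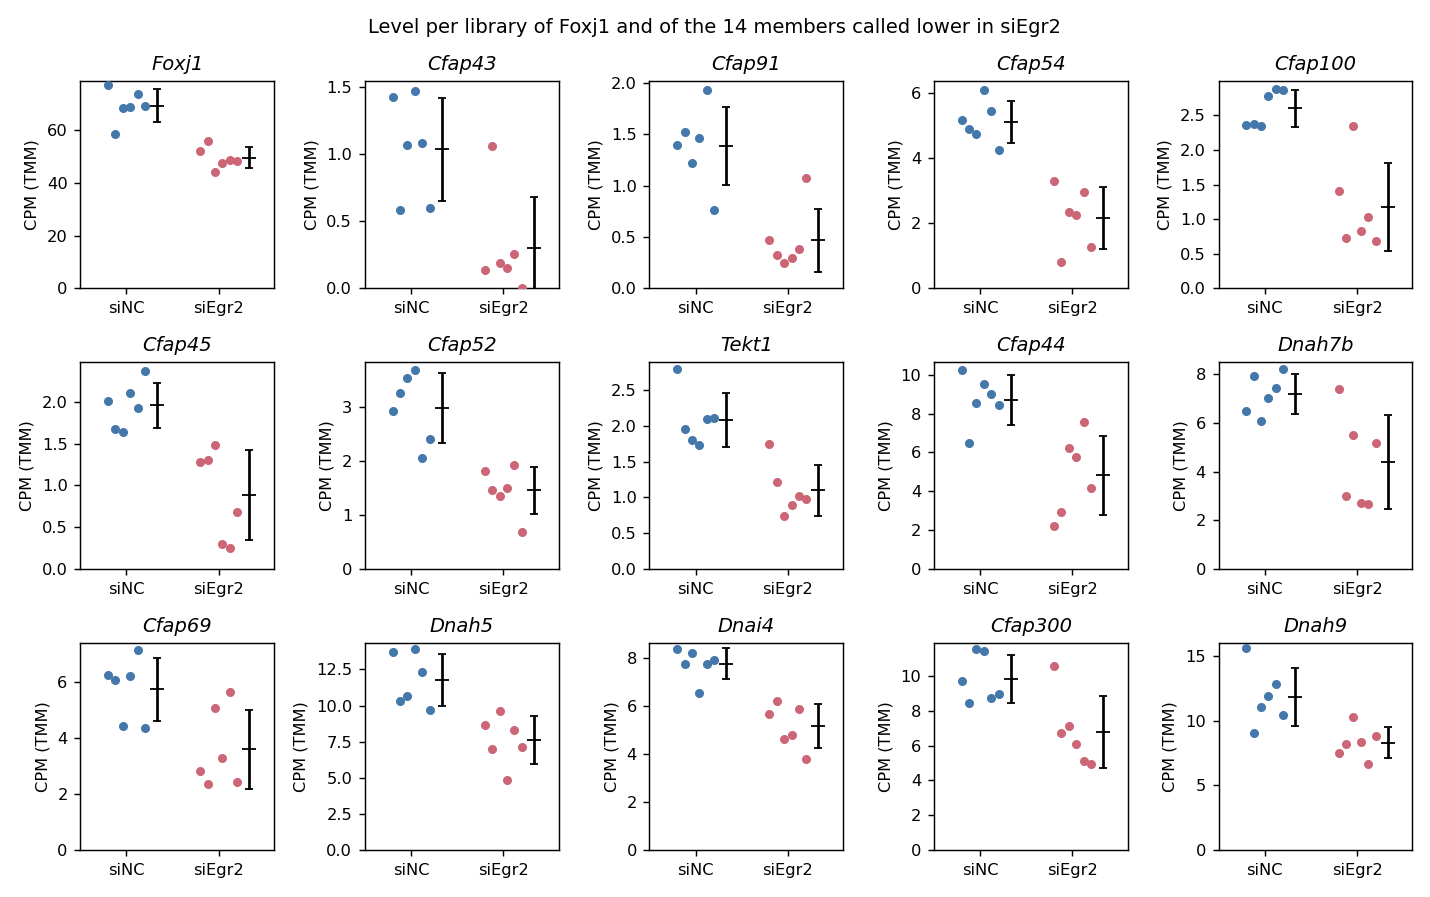
CPM on the TMM scale in each library for Foxj1 and the 14 members called lower; each point is 1 library (6 siNC, 6 siEgr2), and the bar beside each group is the mean ± SD. Foxj1 stands at 44.2 to 55.7 CPM in siEgr2 and 58.4 to 77.0 in siNC, and 6 of the 14 other genes show no overlap between the groups.

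Promoters of the members were examined for the binding motifs of the factors that control this program. For 63 of the 83 members a window from 250 bases before to 50 bases after the start site was taken from RefSeq (GRCm38.p6). The core of the RFX motif, GTTGCC or GGCAAC on the opposite strand, stood in 24 of these 63 genes (38.1%), in 14.1% of all 27025 genes of the reference and in 14.9% of the 11241 tested genes with a window. It was present in 5 of 11 members called lower (45.5%) and in 13 of 31 tested members not called (41.9%), a difference that was not tested. The windows of the 5 called members that hold it are shown because these are the genes that fell; the capitals mark the RFX core, and the distance of its first base from the start site is given after the position.
Tekt1 (chr11:72361904-72361925, minus strand, −35): ctaactagGGCAACgttgcgtc
Tekt1 (chr11:72361884-72361905, minus strand, −15): tccgtccgGTTGCCatagagac
Dnah7b (chr1:46066682-46066703, plus strand, −163): ggagcacaGTTGCCacccaccc
Cfap100 (chr6:90428458-90428479, minus strand, 9): tgagaataGTTGCCttggcgtc
Cfap300 (chr9:8042984-8043005, minus strand, −122): caaagactGGCAACctccttcc
Cfap44 (chr16:44394662-44394683, plus strand, −129): gactctgtGGCAACacctcagt
Cfap44 (chr16:44394772-44394793, plus strand, −19): gttgctatGGCAACcgcagtaa

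A pair of RFX cores facing each other, GTTGCC followed after 0 to 3 bases by GGCAAC, occurred in 2 members (3.17%) and in 0.189% of all genes. Both members, Cfap20dc and Cfap298, were tested and not called. Only exact cores were searched, so a pair with a changed base, such as that in the −19 window of the called gene Cfap44 above, was not counted. These windows are shown because they hold the most complete form of the motif searched, and the capitals run over the pair and the bases between.
Cfap20dc (chr14:8666371-8666400, minus strand, −102): gcccctcaGTTGCCTGGGCAACggctcagc
Cfap298 (chr16:90935016-90935045, minus strand, −188): gggttttgGTTGCCCGGGCAACagctactt
Cfap298 (chr16:90934896-90934926, minus strand, −69): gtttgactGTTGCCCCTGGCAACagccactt

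The core of the forkhead motif, TGTTTA or TAAACA on the opposite strand, stood in 13 of 63 members (20.6%), in 15.1% of all genes and in 10.2% of the tested genes. Of the members called lower it was found in 2 of 11 (18.2%), and of the tested members not called in 4 of 31 (12.9%). The 2 called genes with it are Dnah5 and Cfap43, whose windows are shown with the core in capitals.
Dnah5 (chr15:28203655-28203676, plus strand, −103): cttgttgcTAAACAtgattaag
Cfap43 (chr19:47837402-47837423, minus strand, −54): tacaggtgTAAACAgtggcatc

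**Figure D3:**
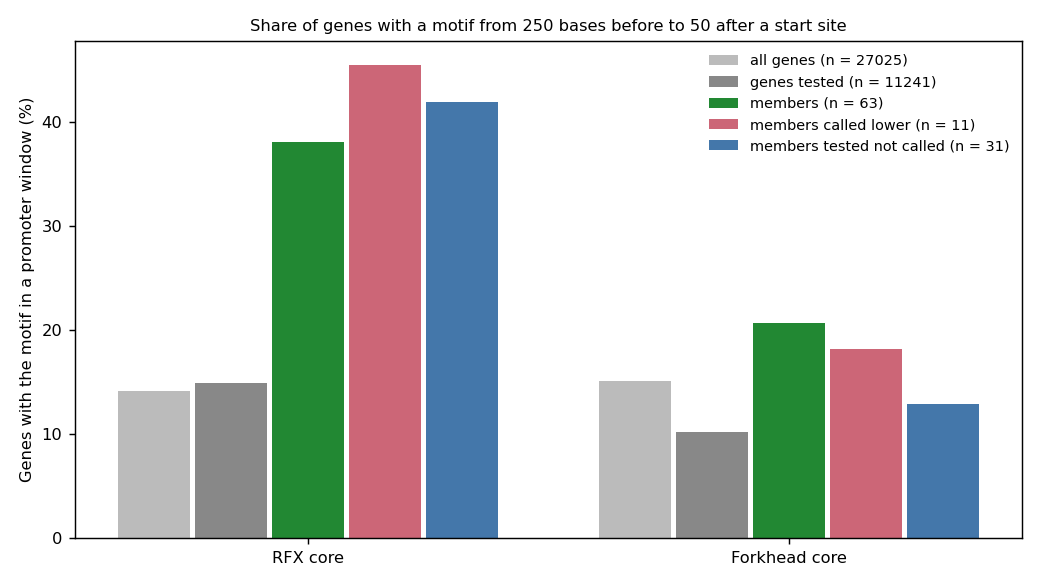
Percent of genes with the RFX core (GTTGCC) or the forkhead core (TGTTTA) on either strand of a promoter window, for all genes of the reference, all tested genes, the members, and the members called lower or tested and not called. The RFX core stands in 38.1% of the members and 14.1% of all genes, with 45.5% of the called and 41.9% of the uncalled members.

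The dynein heavy chains, the motor proteins of the arms, had a lower summed level in siEgr2. The 15 heavy chain genes summed to 52.2 ± 3.59 CPM in siNC (SD, n = 6, range 45.8 to 55.5) and 35.7 ± 4.43 CPM in siEgr2 (29.9 to 40.9), which is 68.4% of siNC with no overlap. Of 10 tested heavy chains, 3 were called lower. This and the counts of the other roles below stand beside the 5.08% of all tested genes called lower, and a role with 1 call rests on that gene alone. The log2 fold change was below 0 in all 10. However, Dnah2, Dnah6, Dnah7a, Dnah11 and Dnah17 were under the filter's minimum in 1 or more siEgr2 libraries, where that sign is more likely. Of these, Dnah6 and Dnah11 could pass the filter on siNC alone. Among the outer arm chains, which set the beat frequency, Dnah5 had 9.70, 11.5 and 13.9 CPM in siNC (lowest, median and highest) and 4.86, 7.72 and 9.64 CPM in siEgr2. The groups did not overlap, and Dnah5 fell to 64.7% of siNC (log2 fold change −0.63, SE 0.15, adjusted p = 0.00762). Dnah9, the partner of Dnah5 in the outer arm, had 9.04, 11.5 and 15.6 CPM in siNC and 6.66, 8.30 and 10.3 CPM in siEgr2. Its groups overlapped, and its log2 fold change of −0.50 (SE 0.14, adjusted p = 0.0164) lay just inside the fold threshold. The call of Dnah9 was lost without siNC 1, siNC 4, siNC 5, siEgr2 1, siEgr2 2 or siEgr2 5, and under 8 further alternatives the log2 fold change or the adjusted p also missed the thresholds. Dnah11 and Dnah17, the other tested outer arm chains, had log2 fold changes of −0.61 and −0.84 and did not pass (adjusted p = 0.507 and 0.399).

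Of 6 tested inner arm heavy chains, 1 was called. Dnah7b had 6.09, 7.23 and 8.21 CPM in siNC and 2.69, 4.09 and 7.39 CPM in siEgr2. Most siEgr2 libraries were low and siEgr2 1, at 7.39 CPM, was within the siNC range (log2 fold change −0.69, SE 0.22, adjusted p = 0.0398). The call was lost with the replicate number as a block and without any 1 of siNC 1, 2, 4, 5 or 6 or siEgr2 2, 4 or 5. Dnah7b shares 30.0% of its 50-base stretches with other genes, its near-identical copies among them, so reads may be split between them. Dnah7a, Dnah7b and Dnah7c together had 8.31 ± 1.08 CPM in siNC and 5.17 ± 2.31 CPM in siEgr2, or 62.2%, with overlap. Dnah10 had 12.1 ± 0.951 CPM in siNC and 8.98 ± 1.67 CPM in siEgr2, passing on adjusted p (0.0209) and not on the fold (log2 fold change −0.43), and without siEgr2 3 it passed both. Dnah6, Dnah2, Dnah1 and Dnah7a had log2 fold changes from −0.86 to −0.08 and did not pass.

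The intermediate chains, which tether the heavy chains within an arm, had summed levels of 71.9% of siNC, and 1 of 4 was called. Dnai4 had 6.53, 7.83 and 8.37 CPM in siNC and 3.80, 5.22 and 6.19 CPM in siEgr2. All siEgr2 libraries lay below siNC (log2 fold change −0.59, SE 0.13, adjusted p = 0.00446), and the call was lost in the thinned libraries. Dnai2, an outer arm chain, had 8.62 ± 1.01 and 6.49 ± 1.81 CPM and did not pass (log2 fold change −0.42, adjusted p = 0.0738), though without siEgr2 5 it did. Dnai1 and Dnai3 had log2 fold changes of −0.34 and −0.44 (adjusted p = 0.541 and 0.724).

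In the central pair, the paired microtubules at the axis of the cilium, the 9 genes together stood at 59.4% of siNC. Of the 5 tested genes Cfap54 was called. All 5 log2 fold changes were below 0. The filter favored that sign for Spag6l, which could pass on siNC alone, and Cfap47 was also under its minimum in some siEgr2 libraries. Cfap54 had 4.24, 5.03 and 6.09 CPM in siNC and 0.814, 2.30 and 3.29 CPM in siEgr2. No siEgr2 library reached the siNC range, and the mean fell to 42.4% of siNC (log2 fold change −1.24, SE 0.25, adjusted p = 0.00217). It was called under all 22 alternatives run at the same thresholds. Cfap74, at 5.03 ± 0.671 and 4.03 ± 0.994 CPM, did not pass (log2 fold change −0.32, adjusted p = 0.221). Spag6l, Cfap47 and Cfap46 had log2 fold changes of −1.02, −0.92 and −0.63 and missed the threshold with adjusted p of 0.169, 0.119 and 0.0723. Cfap46 was called lower by DESeq2 and limma-voom and without siEgr2 6, and Spag6l without siEgr2 3. Hydin, Spag17, Spag16 and Cfap221 had too few counts for a test.

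Among the radial spoke genes, whose products reach from the doublets toward the central pair, 1 of 8 was called. Cfap91, at the spoke base, had 0.766, 1.43 and 1.93 CPM in siNC and 0.247, 0.355 and 1.07 CPM in siEgr2. Of the siEgr2 libraries, siEgr2 6 alone lay within the siNC range (log2 fold change −1.60, SE 0.38, adjusted p = 0.00712), and each siEgr2 value rests on 3 to 11 counts. In the thinned libraries and under a filter of at least 1 CPM in 6 libraries Cfap91 had too few counts to be tested. Rsph1, Rsph4a, Cfap206 and Rsph9 had log2 fold changes from −0.84 to −0.11, and Rsph10b had 0.23, without passing. Rsph3a and Rsph3b share 58.1% and 69.2% of their 50-base stretches with other genes, and their sum was 47.4 ± 2.91 CPM in siNC and 46.1 ± 6.89 CPM in siEgr2. Rsph3a alone had a log2 fold change of 0.013 (SE 0.096, adjusted p = 0.944), and its sign turned under 6 alternatives. None of the 5 N-DRC and ruler genes was called: Ccdc39, which with Ccdc40 forms the ruler that spaces the arms, had 7.95 ± 2.13 and 5.5 ± 1.5 CPM (log2 fold change −0.53, adjusted p = 0.0951), and without siNC 3 it passed. Drc3 and Drc1 had log2 fold changes of −0.65 and −0.56 (adjusted p = 0.0593 and 0.0622). Both were called lower by DESeq2 and limma-voom, Drc3 also without siEgr2 4 or siEgr2 5 and Drc1 without siEgr2 6. Drc7 and Ccdc40 had −0.23 and −0.10.

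Tektins and microtubule inner proteins, which stiffen the doublets from within, had 3 of 8 tested genes called lower. Cfap52 had 2.06, 3.10 and 3.69 CPM in siNC and 0.682, 1.48 and 1.92 CPM in siEgr2, without overlap (log2 fold change −1.03, SE 0.24, adjusted p = 0.00609), and it was not called in the thinned libraries. Cfap45 had 1.64, 1.97 and 2.37 CPM in siNC and 0.256, 0.980 and 1.48 CPM in siEgr2, also without overlap (log2 fold change −1.09, SE 0.35, adjusted p = 0.0381). Its siEgr2 libraries spread widely, from 2 to 24 counts. The call was lost in the thinned libraries, with the replicate number as a block, and without siNC 1, 3, 4, 5 or 6 or siEgr2 4, 5 or 6. Tekt1 had 1.73, 2.02 and 2.79 CPM in siNC and 0.741, 1.0 and 1.75 CPM in siEgr2. The highest siEgr2 library, siEgr2 1, just reached the siNC range (log2 fold change −0.91, SE 0.25, adjusted p = 0.0181), and without siNC 1 the call was lost. Cfap20, a protein of the seam between the tubules of a doublet, had 24.9 ± 2.18 CPM in siNC and 29.0 ± 2.81 CPM in siEgr2 and did not pass (log2 fold change 0.22, SE 0.081, adjusted p = 0.0652). Cfap20 made up most of the summed level of the 15 genes of this role, which was 98.0% of siNC, and the median log2 fold change of the 8 tested genes was −0.74. Of these 8, Cfap161, Cfap45 and Cfap141 were under the filter's minimum in 1 or more siEgr2 libraries.

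The remaining Cfap genes were divided. Cfap44 and Cfap43 belong to the complex that ties an inner arm dynein to the doublet. Cfap44 had 6.50, 8.77 and 10.3 CPM in siNC and 2.22, 4.97 and 7.56 CPM in siEgr2 (log2 fold change −0.87, SE 0.24, adjusted p = 0.0160), with 1 siEgr2 library, siEgr2 5, within the siNC range. Cfap43 had 0.580, 1.07 and 1.46 CPM in siNC and 0, 0.167 and 1.06 CPM in siEgr2 (log2 fold change −1.78, SE 0.58, adjusted p = 0.0392). The siEgr2 2 library was within the siNC range and the siEgr2 values rest on 0 to 13 counts, and the call held in 3 of the 12 fits that left out 1 library, those without siNC 2, siNC 6 or siEgr2 2. With the replicate number as a block the call was also lost, and in the thinned libraries and under the 1 CPM filter Cfap43 was not tested. Cfap100, a part of the regulator of the inner arms, had 2.35, 2.58 and 2.88 CPM in siNC and 0.682, 0.923 and 2.35 CPM in siEgr2. The siEgr2 3 library lay just below the lowest siNC library and the other siEgr2 libraries far below it, so that the groups did not overlap (log2 fold change −1.11, SE 0.28, adjusted p = 0.0104).

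Cfap69, a protein of the sperm flagellum, had 4.36, 6.14 and 7.17 CPM in siNC and 2.36, 3.06 and 5.63 CPM in siEgr2 (log2 fold change −0.68, SE 0.22, adjusted p = 0.0415). Cfap300, which takes part in the delivery of dynein arms, had 8.49, 9.37 and 11.6 CPM in siNC and 4.97, 6.44 and 10.6 CPM in siEgr2 (log2 fold change −0.52, SE 0.17, adjusted p = 0.0392). In both genes the groups overlapped. The call of Cfap69 was lost without siNC 1, 2, 4 or 5 or siEgr2 1, 2, 4 or 6, and that of Cfap300 without siNC 1, 3, 4 or 6 or siEgr2 2, 3, 4, 5 or 6. Among the 14 called members, 7 were called without any 1 library, and these were Cfap54, Cfap91, Cfap100, Cfap52, Cfap44, Dnah5 and Dnai4. Of these, Cfap91 stood above the filter's minimum, read in CPM by total counts, in 1 siEgr2 library and was tested on its siNC level.

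The most abundant Cfap and Rsph genes stood apart from the rest. Several of them also serve in primary cilia or in cells without cilia. Cfap36, a partner of the ciliary GTPase ARL3, had 63.8 ± 2.2 CPM in siNC and 58.1 ± 5.13 CPM in siEgr2 (log2 fold change −0.13, adjusted p = 0.125). Cfap97, Cfap418, Cfap298 and Rsph3b had log2 fold changes from −0.13 to −0.10, with adjusted p from 0.428 to 0.583. Of Cfap298, 36.0% of the 50-base stretches also lie in overlapping annotated genes. The 8 members with a mean over 15 CPM (Foxj1, Cfap36, Cfap97, Cfap418, Cfap298, Rsph3a, Rsph3b and Cfap20) summed to 90.0% of siNC with overlap. The other 75 summed to 183 ± 9.83 CPM in siNC and 128 ± 12.1 CPM in siEgr2, which is 69.9%, without overlap. This split by level was chosen after the values were seen and carries no test. Per kilobase of exon, the mean siNC level was 26.4 CPM for Foxj1, 23.3 for Cfap36 and 13.4 for Cfap298, while Cfap44 had 1.04, Dnah5 and Dnah10 0.753 each, Dnah9 0.740 and Cfap54 0.348.

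**Figure D4:**
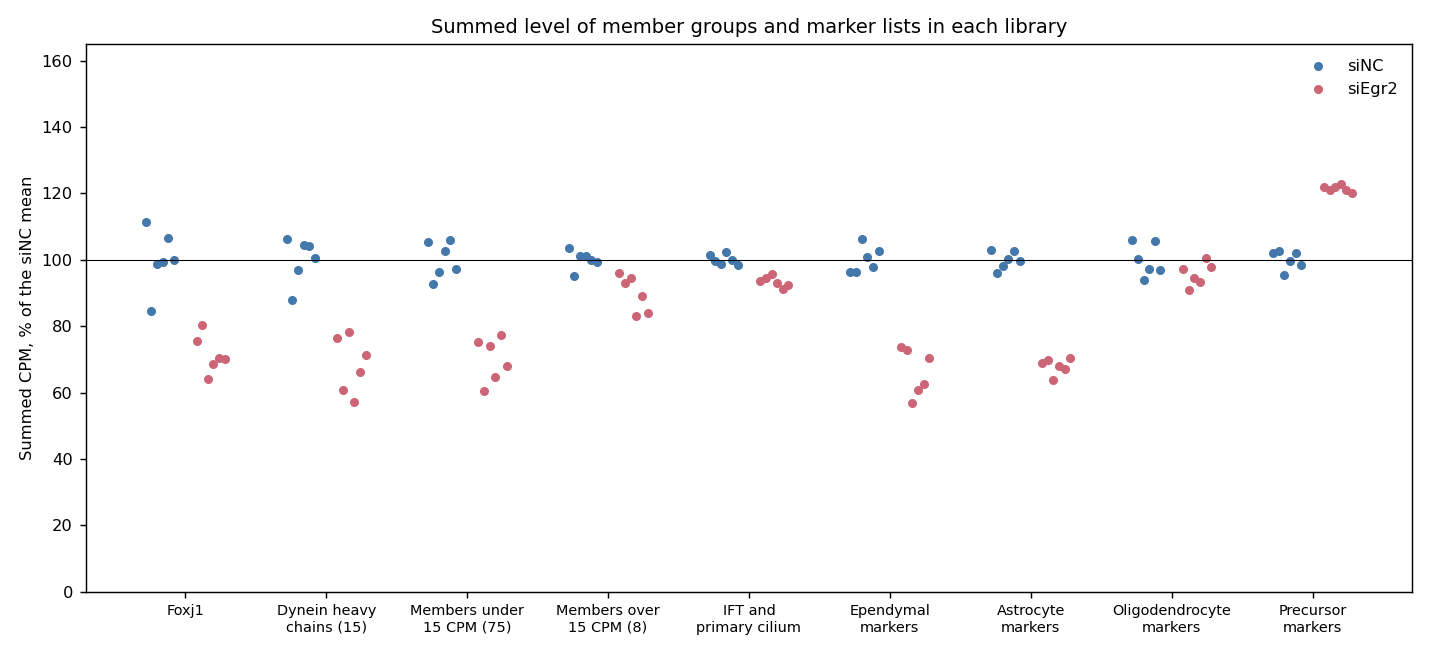
Summed CPM of groups of members and of other gene lists in each library, as a percent of the siNC mean; each point is 1 library (6 siNC, 6 siEgr2) and the line marks 100%. In siEgr2, Foxj1 stands at 63.9% to 80.5%, the dynein heavy chains at 57.2% to 78.3%, the ependymal markers at 56.8% to 73.8%, the astrocyte markers at 63.8% to 70.3%, and the OL markers at 90.8% to 100.4%.

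Other genes of cilia were read from 4 lists. Among 16 regulators of cilium formation, 11 were tested and 2 (18.2%, beside 5.08% of all tested genes) were called lower, while 6 log2 fold changes were above 0 and the median was 0.08. Plk4 and Cep152, which act in the making of centrioles, were higher on adjusted p alone (log2 fold change 0.35 and 0.32, adjusted p = 0.0122 and 0.0392), and the groups of Plk4 did not overlap. Rfx2, an RFX factor of motile cilia, had 10.3, 12.1 and 13.6 CPM in siNC and 6.34, 7.07 and 8.09 CPM in siEgr2, without overlap (log2 fold change −0.74, SE 0.10, adjusted p = 7.86e-05). Rfx4, an RFX factor of the developing brain, had 40.9, 43.9 and 49.9 CPM in siNC and 27.1, 30.5 and 35.1 CPM in siEgr2, also without overlap (log2 fold change −0.54, SE 0.074, adjusted p = 6.79e-05). Rfx3 had 55.5 ± 17.4 and 67.1 ± 4.37 CPM and did not pass (log2 fold change 0.28, adjusted p = 0.457). The siNC 5 library stood at 21 CPM and the other siNC libraries at 57.1 to 68.1 CPM, and without it the log2 fold change of Rfx3 was 0.11. Gmnc, which starts the multiciliated program, was near the limit of detection at 0.792 ± 0.468 and 0.799 ± 0.387 CPM, and Mcidas, which acts after it, had no count.

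Of 41 further axoneme proteins, 31 were tested, 4 (12.9%) were called lower and 1 higher, with a median log2 fold change of −0.47. Of the 31, 9 (Dynlrb2, Ccdc65, Ak7, Spef2, Kif9, Ropn1l, Lrrc23, Ccdc153 and Ttll9) were under the filter's minimum in 1 or more siEgr2 libraries, where a negative sign is more likely. The other 22 had 3 lower calls, 1 higher call and a median of −0.41. Spef2, a central pair protein, fell from 1.84 ± 0.459 to 0.544 ± 0.401 CPM (log2 fold change −1.74, SE 0.42, adjusted p = 0.00717), and it could be tested on its siNC level. Nme5, a radial spoke protein, fell from 3.64 ± 0.903 to 1.71 ± 0.434 CPM (log2 fold change −1.08, SE 0.22, adjusted p = 0.00231). Both had no overlap between the groups. Pierce1 and Dnali1, an inner protein and a dynein light chain, fell by 0.74 and 0.65 on the log2 scale (adjusted p = 0.0254 and 0.0342). The call of Pierce1 was lost in the thinned libraries, with limma-voom, with the replicate number as a block, and without siNC 3, siNC 6, siEgr2 2 or siEgr2 3. That of Dnali1 was lost in the thinned libraries and without siNC 3, 4, 5 or 6 or siEgr2 1, 4 or 5. Spef1, a microtubule-bundling protein that also works outside cilia, rose from 11.5 ± 2.25 to 19.8 ± 4.38 CPM (log2 fold change 0.77, SE 0.15, adjusted p = 0.00119).

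None of the 13 tested dynein arm assembly factors was called in either direction (median −0.07), with 2 lower and 1 higher on adjusted p alone. The 52 genes of intraflagellar transport and the primary cilium, all tested, also gave no call (median −0.13), with 5 lower on adjusted p alone, and their summed level was 93.4% of siNC. Mks1 was called lower without siNC 3, siNC 6, siEgr2 1, siEgr2 3 or siEgr2 4, and Ttc30b without siNC 5, siNC 6, siEgr2 2 or siEgr2 5. Zmynd10, an assembly factor, was called lower by DESeq2, with library size only and without siEgr2 1. The 107 tested genes of these 4 lists thus held 6 lower calls (5.61%, close to the 5.08% of all tested genes) and 1 higher call. All the lower calls came from the regulators (18.2%) and the further axoneme proteins (12.9%, median log2 fold change −0.47). Whether the lists differ from the members was not tested.

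Marker lists of ciliated and other cells were read beside these genes. Of 21 ependymal markers, 16 were tested, 3 were called lower (Tm4sf1, Gm973 and Acta2; 5.08% of all tested genes were), and the summed level was 177 to 196 CPM in siNC and 105 to 136 CPM in siEgr2, or 66.2%. Of the 16, 8 were under the filter's minimum in 1 or more siEgr2 libraries, none of them called, and of the other 8, 7 log2 fold changes were below 0. This sum is mostly Acta2 and Tm4sf1, which smooth muscle and endothelial cells also express, and the call of Acta2 was lost in the thinned libraries. The 13 tested markers that were not called had siNC means from 0.524 CPM (Ccdc153) to 5.38 CPM (Rarres2), and their log2 fold changes ran from −1.24 (Fam183b) to 0.03 (Mlf1). Riiad1 and Rarres2 came nearest to a call (log2 fold changes −0.74 and −0.51, adjusted p = 0.0654 and 0.0650), and Riiad1 was called without siNC 2 or siEgr2 1 and Rarres2 without siEgr2 1 or siEgr2 2. The 5 untested markers had means of at most 0.546 CPM in siNC, and of these Sntn was at 0 in every library. Some ependymal markers, among them Dynlrb2, Ak7, Enkur and Ccdc153, are also in the list of further axoneme proteins. Without the shared genes 15 markers remained and 12 were tested. These held the same 3 calls and summed to 66.1% of siNC. The 10 choroid plexus markers summed to 6.17 to 36.4 CPM in siNC, with siNC 4 highest through Ttr, and to 4.04 to 8.48 CPM in siEgr2, and Otx2 was called lower (log2 fold change −1.69, adjusted p = 0.0174), a call that was lost in the thinned libraries and with the block. Otx2 was under the filter's minimum in 1 or more siEgr2 libraries.

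The 13 astrocyte markers were all tested, 6 were called lower, all 13 log2 fold changes were below 0 (median −0.56), and their sum was 10286 to 11002 CPM in siNC and 6824 to 7518 CPM in siEgr2, or 67.9%. Gfap fell to 67.9%, Aqp4 to 57.5% and Slc1a3 to 55.6% of siNC. The study's qPCR of primary OLs after Egr2 interference found both Gfap and Pdgfra increased, so Gfap, unlike Pdgfra, goes the other way here. The reason was not tested. None of the 16 OL markers was called and their sum was 95.6% of siNC. Of 10 precursor markers 2 (Pdgfra and Cspg4) were called higher and the sum of the 10 was 121%. Both calls were lost with library size only. On adjusted p alone 6 OL markers were lower and 1 higher, and 13 of the 16 log2 fold changes were below 0. By the same rule 7 precursor markers were higher and none lower, and all 10 log2 fold changes were above 0. Beside these, 1877 of all 16600 tested genes were lower and 1423 higher. Gpr17 is in both lists. Of the pericyte and fibroblast markers 3 of 8 tested were called lower, of the endothelial markers 2 of 4, of the neuron markers 1 of 10 and of the microglia markers none of 6, all of which, like the 6 of 13 astrocyte markers, stand beside the 5.08% of all tested genes called lower. In these bulk cultures fewer cells of a type and less RNA per cell cannot be told apart. The part of the ependymal and astrocyte transcripts, the depth and the ribosomal RNA share in the lower axoneme genes was not tested. With the structural RNA genes left out before scaling, 13 members and 4.97% of all genes were called lower.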

How the data were processed

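The authors deposited raw counts per gene symbol for 12 RNA-seq libraries (50 bp Illumina reads of total RNA). Per the labels the genome build was mm10; aligner, counting program, annotation and strand are not given in the sources used here, so counts of overlapping, antisense or near-identical genes are uncertain. The study describes the reagent both as siRNA and as an interference plasmid. The 1 entry without a gene name was left out.

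The analysis used edgeR 4.0.16 (R 4.3.3): filterByExpr, TMM, robust quasi-likelihood test with no covariate, and Benjamini-Hochberg adjustment over 16600 genes. A call needed adjusted p below 0.05 and a log2 fold change beyond 0.5 in size, the thresholds of the study, which names no test. Every adjusted p in the text is from this fit, except the range given for Foxj1 over the alternatives. Levels are CPM on the TMM scale, where 1 count is worth more CPM in the shallower siEgr2 libraries (8034251 to 16683677 counts in total) than in siNC (28682946 to 39383014). Foxj1 was also compared by the exact permutation test. Exon lengths and shared 50-base stretches came from GENCODE M21 (GRCm38), matching 75 members, and promoters from RefSeq (GRCm38.p6), matching 63.

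The members, gene lists and naming rule were chosen with earlier results of these data known. Named members were Foxj1, those called, the 10 most abundant, those without overlap, and the most abundant of each role; of the other lists, called genes. Members named beyond these were chosen after their values were seen. Alternatives were other scaling (RLE, upper quartile, library size), 2 filters, DESeq2 1.42.0, limma-voom (limma 3.58.1), a replicate block, thinning, structural RNAs left out, no fold threshold, and each library left out.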

Additional observations from a re-analysis of the deposited data

Results flagged for a closer look

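Among the 54 groups of 6 libraries examined for the 26 named members and the summed level of all members, 4 held a library farther from the rest than Dixon's critical value allows, where chance gives about 2.7. Cfap43 in siEgr2 2 had 1.06 CPM, while the other siEgr2 libraries had 0 to 0.256 CPM. Cfap91 in siEgr2 6 had 1.07 CPM, beside 0.247 to 0.471 CPM in the others. Tekt1 in siNC 1 had 2.79 CPM, beside 1.73 to 2.11 CPM. Dnai4 in siNC 4 had 6.53 CPM, beside 7.75 to 8.37 CPM. Without siNC 1 the call of Tekt1 was lost, and the calls of Cfap91 and Dnai4 held without any 1 library, while in the thinned libraries Dnai4 lost its call and Cfap91 was not tested.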

How the results depend on the processing

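No member was called higher under any of the 23 alternatives. Against 14 members called lower, the count was 26 with library size only, 8 in the thinned libraries (where Cfap52, Cfap45, Dnai4 and Dnah9 lost their call and Cfap91 and Cfap43 were not tested), 16 with DESeq2, with limma-voom and with adjusted p alone, 17 with no filter, 11 with the stricter filter, 13 with RLE, with upper-quartile factors and with structural RNAs left out, and 7 to 15 with 1 library left out. The cause was not tested, except that thinning and leaving out libraries leave fewer counts or samples. The member median stayed between −0.70 and −0.45. Calls in the 4 other cilium lists (7) became 21 with library size only, 11 with no filter, 18 with adjusted p alone and 6 to 10 with 1 library left out. Rsph3a turned sign to −0.17 with library size only, −0.029 with no filter and −0.036 at the lowest with 1 library left out (highest 0.069). Foxj1 stayed between −0.67 and −0.45, with adjusted p from 2.12e-08 to 0.00162. Of the 14 called members, Cfap54, Dnah5, Cfap44 and Cfap100 were called in all 22 alternatives at the same thresholds. Same-numbered libraries did not deviate together (correlations −0.021 to 0.052 over 6 pairs, 2 of 6 best with their own number), which shows no pairing by number but cannot exclude it. With the replicate block 10 members were called lower, without Cfap45, Dnah7b, Cfap43 and Dnah9. Depth limits members near 1 CPM, which have few siEgr2 counts.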
